A study of Mus musculus with 6 samples.

Results

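The genes described here encode the anaphase-promoting complex (APC/C), its activators and inhibitors, the spindle assembly checkpoint, the chromosomal passenger complex, the kinases and cohesin regulators that act beside them, and the NDC80 complex of the kinetochore. They were chosen by symbol as 39 named genes out of 23235 gene rows, and all 39 were present and passed a filter on low values (a mean of at least 1 FPKM) that 12029 genes passed. The values are poly(A) transcript levels, in FPKM (fragments per kilobase of transcript, relative to the library's reads) scaled to spike-in RNA, of fully-grown germinal vesicle (GV) oocytes of C57BL/6 mice, in 3 wild type (WT) libraries and 3 Rtcb knock-out libraries (Rtcb KO). RTCB is the ligase that joins tRNA exons. The comparison asks how the transcripts of this machinery differ in oocytes that lack Rtcb. Oocytes of both genotypes were collected 44 to 48 hours after PMSG, a gonadotropin, at 10 oocytes per library, and all 6 titles carry the tag 6W. The part of Rtcb deleted, how the deletion was driven and the age of the mice were not given in the sources used here. Whether the 3 libraries of a genotype stem from different animals is not said in the labels, so the spread behind each p-value may be technical. Each library is a bulk sample of 10 oocytes, in which fewer cells of a kind and less RNA per cell cannot be told apart.

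Rtcb itself, listed as D10Wsu52e, stood at 136, 133 and 113 FPKM in WT 1 to 3 and at 3.82, 2.62 and 2.49 FPKM in KO 1 to 3. Oocyte markers were high in every library. The lowest of the 10, Ddx4, was at 22.1 FPKM or more, and their summed level ran from 25750.5 to 29630 FPKM in WT and from 17175 to 18432 FPKM in KO. The 11 granulosa and cumulus cell markers summed to between 56.3 and 64.4 FPKM in WT and between 45.1 and 55.7 FPKM in KO. Of these, 5 (Amh, Amhr2, Fshr, Foxl2 and Has2) were under 1 FPKM in every library, and Cyp19a1 (35.6 to 39.8 FPKM in WT, 17.5 to 22.2 FPKM in KO) was the highest in each library but KO 3, where Inha was at 17.8 FPKM. Of the 6 blood and immune cell markers, both haemoglobin genes were listed at 0 throughout and the sum did not exceed 5.45 FPKM.

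The APC/C is a ubiquitin ligase built from a catalytic pair, a scaffold and an arch of repeat-containing subunits. Loaded with CDC20 or with CDH1, the product of Fzr1, it marks securin and cyclin B for destruction. Loss of securin frees separase, the protease that opens cohesin and lets chromosomes part. Kinetochores without microtubules hold this step back through the spindle checkpoint, which assembles MAD2, BUBR1, BUB3 and CDC20 into an inhibitor of the APC/C. In mouse oocytes the APC/C with CDH1 keeps cyclin B low during prophase arrest at the GV stage, and EMI2, the product of Fbxo43, holds the mature egg in its metaphase arrest. The oocyte stores the mRNAs of this machinery during growth, before the meiotic divisions that use it.

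Many genes of mitosis carry in their promoters a cell cycle genes homology region (CHR), here searched as TTTGAA, and CCAAT boxes, here searched as CCAAT. RefSeq promoter windows of build GRCm38.p6 were matched for 33 of the 39 genes. Only the first listed window of a gene was used, here and for all promoters below. Matches and counts therefore describe that window and not other starts of the gene. The stretches below run from 120 bases before to 30 bases after the annotated start, with matches on either strand in capitals. Espl1 and Cdc20 are shown because they hold a CHR before the start, and Ttk and Fbxo5 because theirs lies just after it. Pttg1 is shown because its window holds neither motif and it is the most abundant of the 39 transcripts.
Espl1, chr15:102296173-102296322 (plus strand): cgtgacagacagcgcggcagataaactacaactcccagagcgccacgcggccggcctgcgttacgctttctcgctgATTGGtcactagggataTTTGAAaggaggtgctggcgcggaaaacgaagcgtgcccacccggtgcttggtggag
Cdc20, chr4:118437314-118437463 (minus strand): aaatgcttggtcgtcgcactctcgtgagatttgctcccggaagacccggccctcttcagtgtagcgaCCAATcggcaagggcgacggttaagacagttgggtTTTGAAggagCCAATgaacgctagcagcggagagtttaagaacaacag
Ttk, chr9:83834569-83834718 (plus strand): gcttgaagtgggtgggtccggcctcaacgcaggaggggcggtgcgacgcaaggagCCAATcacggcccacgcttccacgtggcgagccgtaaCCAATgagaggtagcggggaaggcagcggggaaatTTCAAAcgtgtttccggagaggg
Fbxo5, chr10:5805436-5805585 (minus strand): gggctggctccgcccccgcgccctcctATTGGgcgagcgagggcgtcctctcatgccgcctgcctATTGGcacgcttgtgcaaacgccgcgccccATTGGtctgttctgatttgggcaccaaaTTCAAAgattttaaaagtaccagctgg
Pttg1, chr11:43425952-43426101 (minus strand): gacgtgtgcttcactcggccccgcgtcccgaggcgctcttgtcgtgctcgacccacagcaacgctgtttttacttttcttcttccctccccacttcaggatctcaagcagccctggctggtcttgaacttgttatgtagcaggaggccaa

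In windows of 300 bases, from 250 before to 50 after the start, TTTGAA or its reverse complement TTCAAA was present for 13 of the 33 genes (39.4%), against 18.1% of 27025 promoters of the same length. Cut at the start, leaving 250 bases, the count was 5 of 33 (15.2%), against 16.3% of all promoters, so the difference lay in the 50 bases after the annotated start. CCAAT or ATTGG was present for 19 of the 33 (57.6%) in the longer window, against 37.9% of all promoters. In the window cut at the start it was present for 15 of the 33 (45.5%), against 34.5%. Matches of the 2 motifs overlapped in 1 of the 33 windows, that of Cdca8. Espl1 has a CHR match 27 bases before the start and Cdc20 one 18 bases before it, while in Ttk and Fbxo5 the match begins 7 and 3 bases after the start. These matches are descriptions of letters and do not show binding.

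Most of the 39 transcripts were lower in Rtcb KO oocytes on the deposited scale, by up to 2.86-fold for Aurkb, and the exceptions were spread over 5 of the 8 role groups. By limma at an adjusted p under 0.05, 33 of the 39 fell (84.6%) and 0 rose, with 6 not called. Of all 12029 tested genes 54.0% fell and 9.29% rose, so a fall alone is the common outcome here. The 0 rises were also 0 at an unadjusted p under 0.05, a threshold at which the share of all tested genes was not computed. The median log2 fold change was −0.71 over the 39 genes and −0.47 over all tested genes. In 33 of the 39 genes the 3 KO values lay below the 3 WT values, as they did for 57.5% of all tested genes, and in 0 of the 39 they lay above, against 10.2% of all tested genes.

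The deposited scale contains a common factor per genotype, 2 for the 3 WT columns and 1.33 for the 3 KO columns, found again here from the digits of the values. The ratio of these factors, 0.667 (−0.58 as log2), is therefore part of each deposited fold change. Without the factors 14 of the 39 fell (35.9%, against 18.0% of all tested genes) and 6 rose (15.4%, against 25.7%). The median was then −0.13 over the 39 genes and 0.043 over all tested genes. The 14 that fell are all among the 33 above, as was so for all 2161 tested genes that fell without the factors. Removing the factors shifts fold changes upward, so a fall on both scales is not independent support. The 6 that rose are the 6 not called as deposited: Anapc10, Anapc13, Fbxo5, Birc5, Pttg1 and Spc24. In 18 of the 39 genes the 3 KO values lay below the 3 WT values on this scale, against 24.7% of all tested genes, and in 7 above, against 31.7%. The same 6 rose and the same 14 fell under median-ratio rescaling, against 22.8% and 21.7% of all tested genes. Its divisors were 1.19 to 1.22 in WT and 0.829 to 0.851 in KO. They differ between the genotypes much as the removed factors do, so this repeat is not independent. With equal library totals the same 6 rose, against 19.0% of all tested genes, and 19 fell, these 14 among them, against 25.8%. Whether the factors are the spike-in scaling itself was not given in the sources used here. If they are, values without them are relative to each library's reads, and a rise there is one of share. Summed over all genes, FPKM without the factors were 633865 to 673507 in WT and 707944 to 749630 in KO. Which of these scales matches mRNA per oocyte cannot be told from the values.

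**Figure D1:**
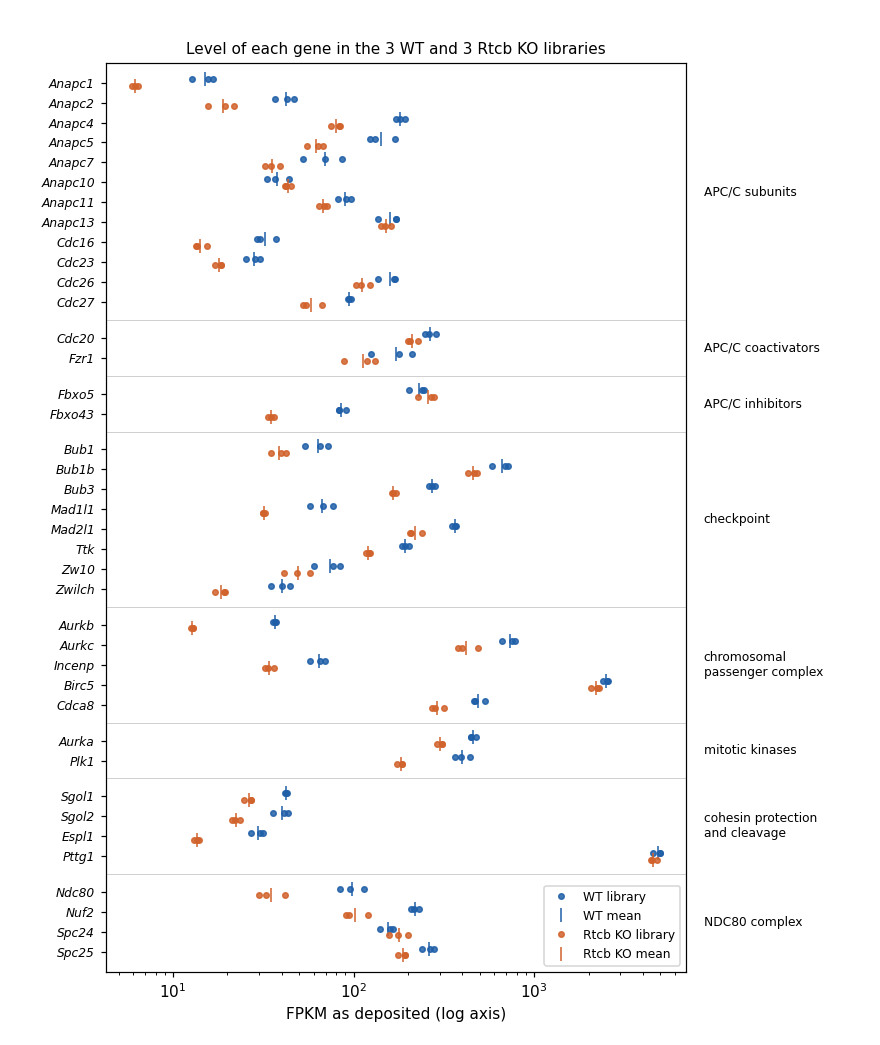
Each row is 1 gene, grouped by role, with FPKM as deposited on a log axis; points are the 3 WT (blue) and 3 Rtcb KO (orange) libraries and bars their means. Levels span from 14.99 FPKM (Anapc1) to 4819 FPKM (Pttg1) in WT, and the orange points lie to the left of the blue for 33 of the 39 genes.

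**Figure D2:**
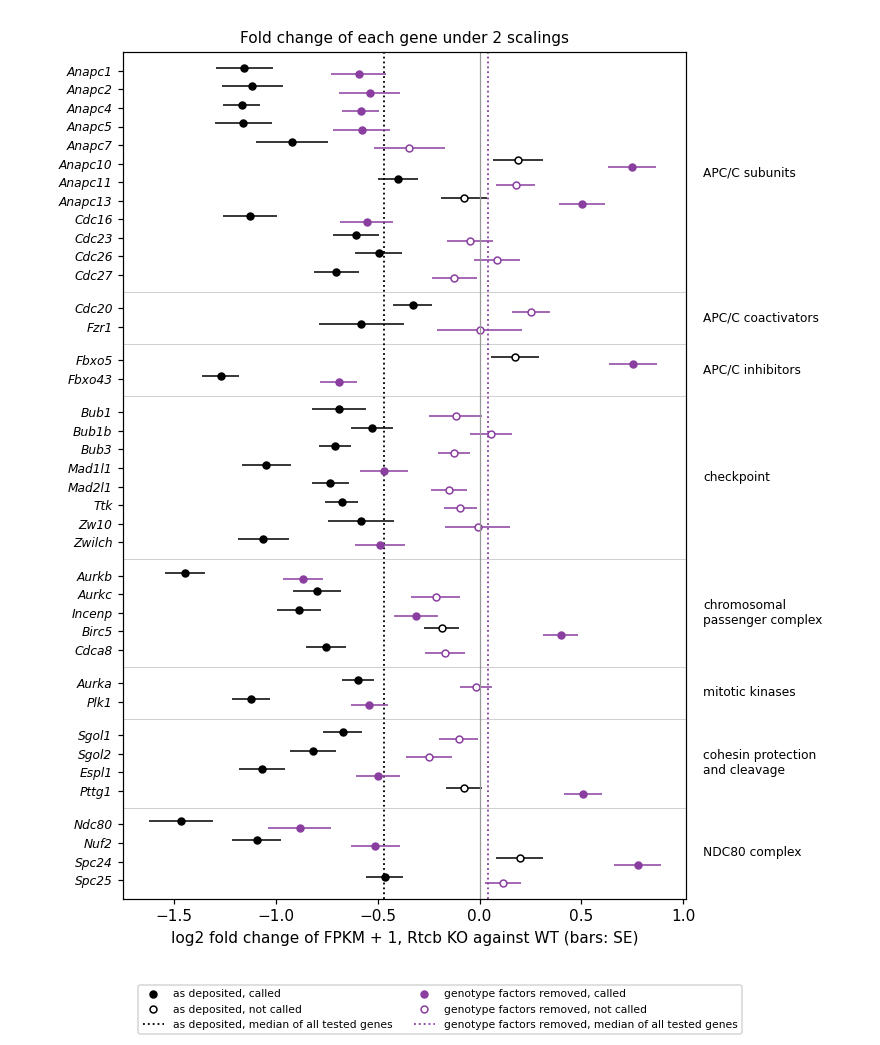
Log2 fold change of FPKM + 1 (x axis, Rtcb KO against WT) with its SE for the 39 genes, as deposited (black) and with the genotype factors removed (purple). Filled points passed limma's adjusted p under 0.05, and dotted lines mark the medians of all tested genes, −0.47 and 0.043; the 6 filled purple points right of 0 are the open black points.

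Among the 12 APC/C subunits, Anapc1, Anapc2, Anapc4, Anapc5 and Cdc16 fell on both scales, and Anapc10 and Anapc13 rose without the genotype factors. As deposited 10 of the 12 fell and 0 rose, where 54.0% and 9.29% of all tested genes did. Without the genotype factors 5 fell and 2 rose, against 18.0% and 25.7% of all tested genes. Anapc4, a platform subunit and the most abundant of the 12 in WT, was at 192, 172 and 181 FPKM in WT and at 82.9, 83.4 and 74.5 FPKM in KO. These groups lay far apart, and Anapc4 fell 2.26-fold (log2 fold change −1.17, SE 0.091, limma adjusted p = 0.000162; without the factors 1.51-fold, adjusted p = 0.00238). Anapc1, the largest platform subunit, was the scarcest of the 39 transcripts. It was at 15.6, 12.7 and 16.7 FPKM in WT and at 6.13, 6.37 and 5.92 FPKM in KO, a fall of 2.44-fold as deposited and 1.63-fold without the factors (limma adjusted p = 0.000329 and 0.00977). Anapc5, the third platform gene, was more spread in WT, at 169, 131 and 123 FPKM, and lower in every KO library, at 67.7, 55.1 and 63.8 FPKM (limma adjusted p = 0.000322 and 0.0126 on the 2 scales).

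The catalytic pair differed in its calls. Anapc2, the cullin, was at 46.5, 42.5 and 36.7 FPKM in WT and at 15.5, 19.4 and 21.7 FPKM in KO, and fell 2.22-fold (limma adjusted p = 0.000494). Its call without the factors (adjusted p = 0.021) was lost when WT 1, WT 2 or KO 1 was left out, at up to 0.072. Anapc11, the RING subunit that binds the ubiquitin-carrying enzyme, was at 82.1, 91.1 and 96.5 FPKM in WT and at 64.01, 71.3 and 68.2 FPKM in KO. It fell 1.32-fold as deposited (limma adjusted p = 0.00836), a fall smaller than the median of all genes, and its log2 fold change turned to 0.18 without the factors (adjusted p = 0.172).

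Of the repeat subunits that form the arch and bind coactivators, Cdc16 fell most, from 32.1 ± 4.46 to 14.1 ± 1.07 FPKM (SD, n = 3), a call kept on both scales (limma adjusted p = 0.000297 and 0.0113). Its libraries were at 37.2, 28.98 and 30.2 FPKM in WT and at 13.4, 15.3 and 13.6 FPKM in KO, with no overlap. Cdc27 (94.5 ± 2.29 to 58.00 ± 7.86 FPKM), Cdc23 (27.99 ± 2.50 to 17.98 ± 0.784 FPKM) and Anapc7 (69.3 ± 16.9 to 35.5 ± 3.23 FPKM) fell as deposited and were not called without the factors (limma adjusted p = 0.385, 0.755 and 0.14). Anapc7 had the second widest WT spread of the 39 genes, a coefficient of variation of 24.3%. Cdc26, a small subunit that stabilises CDC16, was at 137, 167 and 170.1 FPKM in WT and at 103, 122 and 109 FPKM in KO. It thus fell less than Cdc16, its partner, on the deposited scale (1.42-fold against 2.28-fold), and its log2 fold change was 0.085 without the factors; the difference between these genes was not tested.

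Anapc10 and Anapc13 were the 2 subunits that were not called lower as deposited. Anapc10, which helps to hold substrates, was at 33.1, 36.7 and 43.6 FPKM in WT and at 42.05, 45.1 and 41.9 FPKM in KO, with overlapping groups and a log2 fold change of 0.19 (SE 0.12, limma adjusted p = 0.202). Without the factors it rose 1.71-fold (limma adjusted p = 0.00266). Anapc13, a small subunit that steadies the arch, overlapped as well, at 137, 171 and 171 FPKM in WT and 141, 161 and 149.8 FPKM in KO, and rose 1.42-fold without the factors (limma adjusted p = 0.00945). By rank among the tested genes, which a factor common to a genotype does not change, Anapc10 moved from 4358 to 3234 and Anapc1 from 6593 to 8037, rank 1 being the highest mean.

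Both coactivators fell as deposited, and neither was called without the factors. Cdc20 was at 284, 247 and 262 FPKM in WT and at 206, 199 and 227 FPKM in KO, and Fzr1 at 209.8, 178 and 125 FPKM in WT and 119, 88.6 and 132 FPKM in KO. The Cdc20 groups were apart, while those of Fzr1 overlapped, with WT 3 below KO 3. Cdc20 fell 1.26-fold (limma adjusted p = 0.0154), a call lost without KO 1 (adjusted p = 0.0543), and Fzr1 1.51-fold (adjusted p = 0.0411). The Fzr1 call was lost without WT 1, WT 2, KO 1 or KO 2 (up to 0.132) and with no filter (0.0845) or no intensity trend (0.0578). Without the factors the log2 fold changes were 0.25 (limma adjusted p = 0.0577) and 0.00037 (0.999).

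The paralogous inhibitors of the APC/C differed in their calls. Fbxo43, which encodes EMI2, was at 90.8, 83.05 and 82.7 FPKM in WT and at 36.03, 35.00 and 33.3 FPKM in KO, a narrow spread on both sides. It fell 2.46-fold as deposited (log2 fold change −1.27, SE 0.092, limma adjusted p = 0.000162) and 1.64-fold without the factors (adjusted p = 0.00148). Fbxo5, which encodes EMI1, was at 245, 239.8 and 202 FPKM in WT and at 268, 226 and 280.2 FPKM in KO. Its groups overlapped as deposited (log2 fold change 0.17, limma adjusted p = 0.226), and it rose 1.69-fold without the factors (adjusted p = 0.00244). Its rank moved from 1185 to 737, that of Fbxo43 from 2625 to 3706.

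All 8 checkpoint genes fell as deposited, as did 54.0% of all tested genes. Of the 8, 2 fell without the factors as well, Mad1l1 and Zwilch, against 18.0% of all tested genes. Mad1l1, which encodes the kinetochore platform for MAD2, was at 76.6, 67.7 and 57.2 FPKM in WT and at 31.6, 31.4 and 32.3 FPKM in KO, a fall of 2.11-fold (limma adjusted p = 0.000285). Without the factors its fall was 1.41-fold (adjusted p = 0.0158) and lost its call without WT 2 (0.0561). Zwilch, of the RZZ complex that recruits dynein to kinetochores, was at 44.6, 40.3 and 34.8 FPKM in WT and at 19.05, 19.4 and 17.02 FPKM in KO. It fell 2.16-fold (limma adjusted p = 0.000301), and the call without the factors (adjusted p = 0.0151) was lost without WT 2 or KO 3 (up to 0.0598). Zw10, its partner in that complex, fell from 73.9 ± 12.3 to 48.96 ± 8.20 FPKM (limma adjusted p = 0.0143), a call lost without WT 1 or WT 2 (up to 0.0519).

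Bub1b, Mad2l1 and Bub3, whose products form the mitotic checkpoint complex with CDC20, fell as deposited and were not called without the factors. Bub1b, which encodes BUBR1 and is the most abundant checkpoint transcript, was at 692, 582 and 714 FPKM in WT and at 463, 480.2 and 432 FPKM in KO. Its fall of 1.45-fold as deposited (limma adjusted p = 0.00269) became a log2 fold change of 0.057 without the factors (adjusted p = 0.675). Mad2l1, which encodes MAD2, was at 351, 366 and 369.8 FPKM in WT and at 208, 239.9 and 206 FPKM in KO, 1.66-fold lower as deposited (limma adjusted p = 0.000346) and not called without the factors (1.11-fold, adjusted p = 0.204). Bub3 (272 ± 10.5 to 166 ± 3.999 FPKM) and the kinase genes Ttk (193 ± 8.61 to 120.4 ± 3.51 FPKM) and Bub1 (63.5 ± 9.04 to 38.8 ± 3.78 FPKM) fell between 1.60-fold and 1.64-fold. None of these 3 was called without the factors (limma adjusted p = 0.217, 0.361 and 0.492).

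In the chromosomal passenger complex, the kinase gene Aurkb had the largest fold of all 39 genes by the ratio of means. It was at 35.8, 36.5 and 37.1 FPKM in WT and at 12.8, 12.5 and 12.9 FPKM in KO, with coefficients of variation of 1.68% and 1.37%. The fall was 2.86-fold as deposited (log2 fold change −1.45, SE 0.1, limma adjusted p = 0.000162) and 1.91-fold without the factors (adjusted p = 0.00107). Aurkc, the germ cell kinase of the same family, was far more abundant, at 659.8, 748 and 782 FPKM in WT and 379, 487 and 396 FPKM in KO. It fell 1.74-fold as deposited (limma adjusted p = 0.000753) and was not called without the factors (1.16-fold, adjusted p = 0.175). The paralogs are alike in sequence, and how reads shared between them were assigned was not given in the sources used here.

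Incenp, the scaffold of the complex, was at 65.2, 69.8 and 57.1 FPKM in WT and at 32.4, 33.5 and 36.3 FPKM in KO, 1.88-fold lower (limma adjusted p = 0.000353). Without the factors its call (adjusted p = 0.0488) held only with all 6 libraries or without WT 3, and reached 0.166 when others were left out. Cdca8, which encodes borealin, fell from 490.1 ± 40.2 to 290.5 ± 23.8 FPKM (limma adjusted p = 0.000442; 0.195 without the factors). Birc5, which encodes survivin, was the second most abundant of the 39, at 2412, 2555 and 2524 FPKM in WT and at 2225, 2069 and 2296 FPKM in KO. Every KO library lay below every WT library by a small margin (log2 fold change −0.19, limma adjusted p = 0.0867), and without the factors Birc5 rose 1.32-fold (adjusted p = 0.00828).

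Of the kinases of spindle assembly, Plk1 fell on both scales and Aurka as deposited only. Plk1, the polo-like kinase, was at 438, 392 and 365 FPKM in WT and at 185, 175 and 185 FPKM in KO, a fall of 2.19-fold (limma adjusted p = 0.000162) or 1.46-fold without the factors (adjusted p = 0.0034). Aurka, the spindle pole kinase, was at 478, 448 and 445 FPKM in WT and at 289, 307 and 307 FPKM in KO. It fell 1.52-fold as deposited (limma adjusted p = 0.000442), near the factor between the genotypes, and had a log2 fold change of −0.016 without the factors (adjusted p = 0.885).

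Among the genes that guard or cleave cohesin, the separase gene Espl1 fell while the securin gene Pttg1 was not called as deposited. Espl1 was at 31.4, 26.9 and 30.4 FPKM in WT and at 13.1, 13.6 and 13.9 FPKM in KO, 2.18-fold lower (limma adjusted p = 0.000217) or 1.46-fold lower without the factors (adjusted p = 0.00901). Pttg1, at 4546, 4942 and 4969 FPKM in WT and 4479.6, 4447 and 4778 FPKM in KO, ranked 20 of the tested genes in WT and 11 in KO. Its groups overlapped (log2 fold change −0.077, SE 0.089, limma adjusted p = 0.47), and without the factors it rose 1.42-fold (adjusted p = 0.00411). The shugoshin genes, whose products shield centromeric cohesin, were at alike levels. Sgol1 (now Sgo1) was at 41.6, 42.3 and 42.9 FPKM in WT and 26.99, 26.9 and 24.6 FPKM in KO, and Sgol2 (now Sgo2a) at 35.7, 43.5 and 40.9 FPKM in WT and 21.97, 23.6 and 21.1 FPKM in KO. Both fell as deposited (limma adjusted p = 0.000625 and 0.000567), and neither was called without the factors (0.401 and 0.108).

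The NDC80 complex, the main microtubule-binding complex of the kinetochore, is made of NDC80 and NUF2 at its outer end and SPC24 and SPC25 at its inner end. The outer pair fell on both scales and the inner pair did not. Ndc80 was at 95.6, 83.5 and 113 FPKM in WT and at 32.7, 41.5 and 29.8 FPKM in KO, the steepest log2 fold change of the 39 (−1.47, SE 0.16, limma adjusted p = 0.00023; −0.88 without the factors, adjusted p = 0.00374). Nuf2 was at 207, 216 and 229 FPKM in WT and at 94.3, 121 and 91.01 FPKM in KO, 2.13-fold lower (limma adjusted p = 0.000244; 0.0115 without the factors). The KO values of both were highest in KO 2.

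Spc24, in contrast, was at 140.2, 159 and 165 FPKM in WT and at 175, 157 and 201 FPKM in KO, with 1 KO library inside the WT range and the other 2 above it. Its log2 fold change was 0.20 as deposited (SE 0.12, limma adjusted p = 0.163) and 0.78 without the factors (adjusted p = 0.00206), the largest rise of the 39 there. Spc25 was at 239, 277 and 264 FPKM in WT and at 193, 193 and 177 FPKM in KO. It fell 1.38-fold as deposited (limma adjusted p = 0.00271), close to the median of all genes, and was not called without the factors (log2 fold change 0.12, adjusted p = 0.322). In WT the 4 transcripts thus ran from Spc25 down through Nuf2 and Spc24 to Ndc80, and in KO Spc25 and Spc24 (188 ± 9.48 and 178 ± 21.9 FPKM) came before Nuf2 and Ndc80 (102 ± 16.2 and 34.7 ± 6.11 FPKM). Spc25 and Spc24 did not differ beyond their spread in KO.

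Ratios of paired genes within a library do not carry a factor common to that library, and 9 were computed. For 6 of the 9, the 3 KO ratios lay apart from the 3 WT ratios, 4 higher and 2 lower in KO. How often ratios of other gene pairs lie apart was not computed, and the 9 pairs were chosen with earlier results known. The count is therefore no result particular to these genes. Each of the 6 ratios that lay apart had p = 0.1 in an exact permutation test (two-sided), the smallest that 3 against 3 can give. No ratio could thus pass 0.05 (0.15 after Benjamini-Hochberg adjustment over the 9). The largest shift was that of Fbxo43 to Fbxo5, at 0.370, 0.346 and 0.410 in WT and 0.135, 0.155 and 0.119 in KO, a difference of −1.45 on the log2 scale. The securin to separase ratio, Pttg1 to Espl1, was 145, 184 and 163 in WT and 341, 328 and 343 in KO, with the KO libraries almost level with each other. Its mean went from 164 ± 19.7 to 337 ± 8.42 (SD, n = 3), 2.06 times the WT value.

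Aurkc exceeded Aurkb in every library, by 18.4, 20.5 and 21.1 times in WT and 29.5, 38.8 and 30.8 times in KO. Anapc11 to Anapc2, the catalytic pair, went from 2.18 ± 0.432 to 3.65 ± 0.496, and Spc24 to Spc25 from 0.594 ± 0.0266 to 0.952 ± 0.166 (SD, n = 3). Mad2l1 to Cdc20 was lower in KO, at 1.23, 1.48 and 1.41 in WT and 1.01, 1.21 and 0.910 in KO. The groups overlapped for Cdc20 to Fzr1 (exact permutation p = 0.3), Mad2l1 to Mad1l1 (p = 0.2) and Sgol2 to Sgol1 (p = 0.3). In each of these 3 a single WT library lay among the KO ratios. These are ratios of transcript levels per length and give no ratio of proteins.

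**Figure D3:**
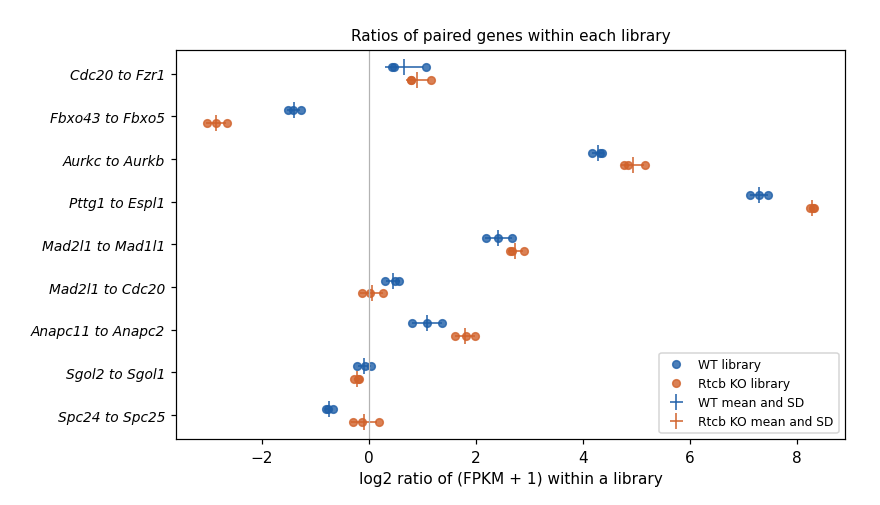
Log2 ratio of FPKM + 1 of 9 gene pairs within each library (x axis), with 3 WT (blue) and 3 Rtcb KO (orange) points per pair and bars for mean and SD. The colours separate for 6 pairs, most for Fbxo43 to Fbxo5 (−1.45) and Pttg1 to Espl1 (0.99).

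Other genes of the same machinery were counted from a list of 45 that the table holds: further APC/C subunits and its ubiquitin-conjugating enzymes, further checkpoint genes, the rest of the kinetochore network and the centromere proteins. Of 44 that were tested, 28 fell and 4 rose as deposited, where 54.0% and 9.29% of all tested genes did. Without the factors 8 fell and 16 rose, against 18.0% and 25.7% of all tested genes. The 4 rises as deposited and the 8 falls without the factors were near those shares. The median of the 44 was −0.47 as deposited, as it was for all tested genes, against −0.71 for the 39 genes. It differed between their groups. The further checkpoint genes had a median of −1.04, lower than the −0.70 of the checkpoint genes among the 39. The median was −0.54 for the rest of the kinetochore network, −0.39 for the centromere proteins and −0.14 for the further APC/C subunits and enzymes. Cenpf, a large protein of the outer kinetochore, fell most, from 108, 128 and 125 FPKM in WT to 35.4, 42.9 and 32.8 FPKM in KO (log2 fold change −1.68, limma adjusted p = 0.000162; 0.00108 without the factors). Tpr, a nuclear pore protein that binds MAD1, fell 2.48-fold (36.4 ± 1.63 to 14.7 ± 0.427 FPKM). Ccdc99, the older symbol of the dynein adaptor gene Spdl1, fell 2.38-fold (166 ± 12.9 to 69.7 ± 5.83 FPKM), and Gsg2, the older symbol of the histone kinase gene Haspin, 2.25-fold (121 ± 5.86 to 53.7 ± 4.53 FPKM). These 4 had limma adjusted p = 0.000162 as deposited and were also called lower without the factors.

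The 4 that rose as deposited were Ube2c, Oip5, Cenpl and Ska2. Ube2c, the enzyme that starts ubiquitin chains for the APC/C, was at 515, 532 and 532 FPKM in WT and at 687, 613 and 716 FPKM in KO, above WT in every KO library. It rose 1.28-fold (log2 fold change 0.35, SE 0.087, limma adjusted p = 0.00893). Oip5, which helps to load the centromeric histone, rose from 16.7 ± 1.17 to 24.7 ± 3.48 FPKM (limma adjusted p = 0.00916). Cenpl, of the inner kinetochore, rose from 26.4 ± 0.704 to 35.2 ± 5.01 FPKM (adjusted p = 0.0251), a call lost without WT 1, WT 2, KO 1 or KO 3 (up to 0.0945). Ska2, listed under its older symbol Fam33a and part of a complex that holds kinetochores to microtubules, was at 15.7, 23.04 and 18.1 FPKM in WT and at 26.9, 23.00 and 26.9 FPKM in KO. Its groups overlapped, with WT 2 above KO 2, and its rise (log2 fold change 0.43, limma adjusted p = 0.0417) lost its call without WT 1, WT 3, KO 1 or KO 3 (up to 0.122), and with no filter on low values. Without KO 2, 6 genes of the list rose, a setting for which the share of all tested genes was not computed. Pmf1 and Cenpm, named after their values were seen, changed direction between the scales. Pmf1 fell as deposited (limma adjusted p = 0.00913) and rose without the factors (0.0402), where the call was lost whichever library was left out. Cenpm fell as deposited (0.0263), a call lost without WT 3, KO 1 or KO 3, and rose without the factors (0.0418), a call lost without each library but WT 3.

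**Figure D4:**
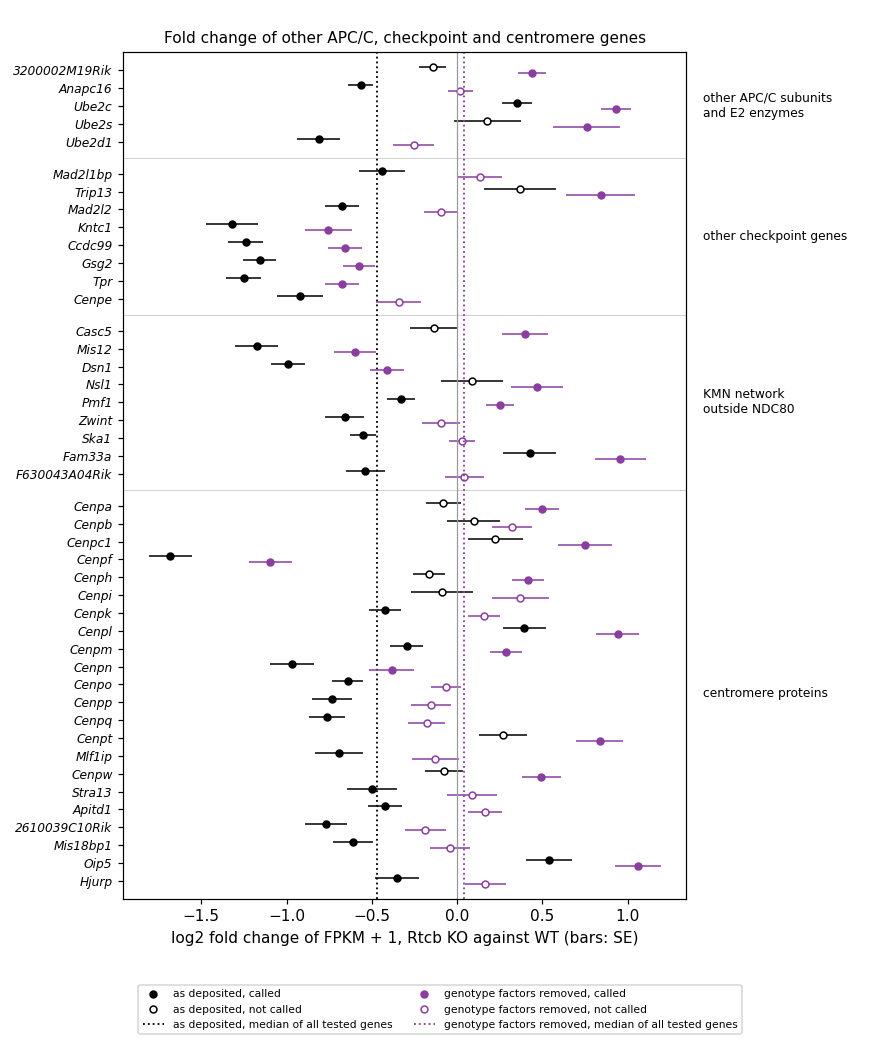
Log2 fold change of FPKM + 1 (x axis, Rtcb KO against WT) with its SE for the 44 tested genes of the further list, as deposited (black) and with the genotype factors removed (purple). Filled points passed limma's adjusted p under 0.05, and the 4 filled black points right of 0 are Ube2c, Cenpl, Oip5 and Fam33a (Ska2).

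The libraries are not known to keep strand, so reads from exons that overlap a gene on the other strand cannot be told apart. The GENCODE vM21 annotation used for this is of a later genome build than the mm9 of the values. In it this holds for 9 of the 39 genes: Anapc13, Cdc23, Cdc20, Fzr1, Mad1l1, Zwilch, Cdca8, Plk1 and Sgol2. Their values are uncertain to that extent, and the part of such reads in the results was not tested.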

How the data were processed

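Per the labels, the values are FPKM per gene symbol that the authors normalized to ERCC spike-ins, from Smart-seq2 libraries read as 150 bp paired ends. TopHat2 2.1.1, Cufflinks 2.2.1 and build mm9 are named in the submitters' processing notes; annotation, filters and the making of the spike-in factors were not given in the sources used here. FPKM keep no read counts, so depth and counting error are unknown. Deposited columns were searched for a common factor with 255 candidate fractions: division by 2 (WT) or 4/3 (KO) returned 6-digit values for 100% of values of at least 1 (tolerance 0.01 of the last digit; next best 76.8%), up to powers of 10.

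The 12029 of 23235 rows whose mean reached 1 FPKM entered a fit of log2(FPKM + 1) by limma 3.58.1 (R 4.3.3; intensity trend, two-sided, Benjamini-Hochberg over all tested genes, adjusted p under 0.05), a step tested on simulated data. Fold changes on this scale understate changes of low genes; folds without "log2" are ratios of mean FPKM. Pair ratios used an exact permutation test (scipy 1.17.1). Libraries were grouped by genotype. The 39 genes, the further list of 45, the pairs and the tests were chosen with earlier results of these data known. Values per library were set to be given for genes called alike on both scales, the most abundant gene of each role, genes whose sign turned, and the pairs; of the further list, for rises and the 4 of smallest p. In that list Anapc15, Ska2, Ska3 and Mis18a were matched through RefSeq synonyms, the last 3 of these after the data had been seen. Stra13, in that list as an older symbol of Cenpx, has other uses as a symbol. Alternatives were pseudocounts of 0.1 and 5, no filter or a mean of at least 10 FPKM, other scalings, no trend, a replicate block and each library left out; the block without the factors, and libraries left out without the factors, were added after seeing the data. Python 3.11.15, pandas 2.3.3, numpy 2.4.6 and matplotlib 3.10.9 were used.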

Additional observations from a re-analysis of the deposited data

How the results depend on the processing

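Pseudocounts, filters, the trend and the replicate block changed the count of the 39 genes that rose (0) or fell (33) by no more than 1. With a replicate block 33 fell and 0 rose. Same-numbered WT and KO libraries had correlations of 0.14, −0.099 and 0.038 across genes, within the −0.24 to 0.17 of libraries with different numbers. Whether the numbers pair the samples cannot be told from these values. Leaving out 1 library gave 31 to 33 falls and 0 rises. The scaling changed the counts: without the factors 14 fell and 6 rose, with equal totals 19 and 6, with median-ratio rescaling 14 and 6, and with the replicate block and the factors removed 13 and 6. Without the factors and 1 library, 10 to 15 fell and 6 to 7 rose. Of the further list, 28 fell and 4 rose as deposited, against 8 and 16 without the factors, 13 and 12 with equal totals, 9 and 12 with median-ratio rescaling, and 8 and 13 with the replicate block and the factors removed. Of all tested genes 25.8% fell and 19.0% rose with equal totals, and 21.7% and 22.8% with median-ratio rescaling. Without 1 library the rises of that list numbered 2 to 6 as deposited. Without the factors and 1 library they numbered 10 to 14 and the falls 6 to 9. For settings other than the scalings, shares of all tested genes were not computed, so those counts are no result particular to these genes.

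Log2 fold changes of single genes that turned sign did so under rescaling only. Without the factors, with equal totals and with median-ratio rescaling, in that order, they were 0.18, 0.028 and 0.11 for Anapc11, 0.50, 0.35 and 0.44 for Anapc13, 0.25, 0.10 and 0.18 for Cdc20, 0.40, 0.25 and 0.33 for Birc5, and 0.51, 0.36 and 0.44 for Pttg1. Without the factors and with median-ratio rescaling they were 0.085 and 0.015 for Cdc26, and 0.12 and 0.046 for Spc25. Without the factors alone they were 0.00037 for Fzr1 and 0.057 for Bub1b. These turns follow from the scaling itself. No pair ratio changed direction under any pseudocount, with the factors removed or without any 1 library. The depth is unknown, and the number of libraries, 3 per genotype, limits the precision.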
